A study of Mus musculus with 8 samples.

Results

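The NF-kB and TNF response genes described here are 34 named genes of the NF-kB pathway and its common targets, out of 27405 genes listed in the 4 libraries together. All 34 were listed and counted. The rule names the genes and uses no measured value, and the list was drawn up with earlier results of these data known. The study sequenced RNA of single CD45+ cells, isolated by sorting from tumours of MC38 (a colon carcinoma line of the mouse) grown in wild-type animals. The treated group (2 libraries) received LNP-Sirpa, and the other group (2 libraries) is labelled control, with nothing further on what it was given. By the title of the series, the treatment aims to degrade SIRPα, an inhibitory receptor of phagocytes, in the tumour. All 4 libraries share genotype and batch label. Whether replicates are different mice is not stated in the labels. A p-value for treatment within a cell class therefore sets a difference against the spread among libraries alone, and that spread could be technical. Tests between classes, and of treatment by class, take the library as a block. Their p-values use the spread that is left after it, which could be technical too.

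NF-kB is a family of dimeric transcription factors that IkB proteins hold in the cytoplasm until TNF, Toll-like receptor or IL-1 receptor signals release them. Many of its targets are its own inhibitors, so the transcripts of IkB proteins, A20 and related adaptors rise and fall with the signal. In macrophages and neutrophils the pathway drives inflammatory gene expression, in dendritic cells it accompanies maturation, and regulatory T cells receive it through TNF receptor family members.

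The libraries held 68654004 and 90789729 unique molecular identifiers (UMIs) in control 1 and 2 and 85810250 and 70581678 in LNP-Sirpa 1 and 2. Cells were assigned to 8 classes by UMIs of fixed marker genes, none of them one of the 34, with thresholds set after the data were seen. The mature dendritic markers (Ccr7, Fscn1, Cacnb3, Ccl22, Nudt17 and Zmynd15) include maturation genes. That gate therefore selects on maturation, which the pathway accompanies, and is not independent of the 34. The classes held 4857, 7022, 4422 and 5251 monocyte/macrophage cells, always in the order control 1, control 2, LNP-Sirpa 1 and LNP-Sirpa 2. There were 20, 26, 243 and 137 neutrophils, 117, 127, 155 and 41 mature dendritic cells and 47, 65, 143 and 130 regulatory T cells. Type 1 dendritic, CD8 T and NK cells and a class with fibroblast and tumour markers held from 27 to 454 cells per library. That last class lies outside the CD45 sort by its markers. CD4 T cells without a Foxp3 UMI (14, 29, 94 and 103 cells) were also gated but stayed outside the 8 classes. So did B, plasmacytoid dendritic, mast or basophil and other T or NK cells. Levels in regulatory T cells are therefore not set against those of other CD4 T cells. Each class had a UMI of all its own markers in every library, apart from the fibroblast and tumour class, where 5 of 8 markers did. Barcodes with markers of mixed lineages entered no class, and they made up 10.3%, 13.7%, 22.8% and 11.8% of the cells that passed the filter. With these, cells of too few marker UMIs and others, 24.6%, 24.7%, 37.9% and 29.6% of those cells were left without a gate. The neutrophil sums of the controls rest on 47178 and 55397 UMIs, against 1012509 and 471761 in the LNP-Sirpa libraries.

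Free RNA was read from the complement genes C1qa, C1qb and C1qc, which mark macrophages. Their level in neutrophils was 28.9% to 44.9% of that in monocyte/macrophage cells, in mature dendritic cells 15.4% to 25.1% and in NK cells 6.48% to 9.26%. Relative to their own monocyte/macrophage level, all 34 genes lay above this background in mature dendritic cells in all 4 libraries. The same held for 28 of 34 in neutrophils (all but Nfkb2, Tnfaip3, Traf2, Ripk2, Sod2 and Cd83) and for 31 of 34 in regulatory T cells (all but Ier3, Osm and Tnfaip2).

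Promoter sequences were searched for letter patterns of the kB type, the element that NF-kB binds. Of the 34, 27 have an entry in the RefSeq promoter table (mouse build GRCm38.p6, an older build than the GRCm39 used for the reads), which spans 250 bases before to 50 after each start. Nfkb1, Relb, Nfkbiz, Ripk2, Map3k8, Cd83 and Osm have none. The kB-type pattern of GGGA, any 4 bases and CC, searched on both strands, matched in 13 of 27 (48.1%) and in 22.9% of the 27025 genes of the table. The narrower GGGA, any 2 bases and TTCC matched Nfkb2 and Nfkbia, 2 of 27 (7.41%), against 1.63% of genes. The classical kB element, which is the capitals of the first site shown, matched Nfkb2 alone among the 27 and 0.174% of genes. The looser GGG, any 5 bases and CC, which contains all of these, matched in 81.5% of the 27 and in 53.5% of genes. These 4 spellings were chosen after counts of several had been seen. A match is a description of letters and not a binding site. The sites shown are a selection, from subunit genes (Nfkb2 and Rel), feedback inhibitors (Nfkbia, Tnip1 and Tnip3) and a survival gene (Birc3). Matches in Nfkbid, Bcl3, Tnfaip3, Zfp36, Traf2, Bcl2a1b and Ccrl2 are not shown, nor are further ones in Nfkb2 and Nfkbia. The 10 bases of the pattern are in capitals.
Nfkb2, chr19:46305695-46305724, plus strand: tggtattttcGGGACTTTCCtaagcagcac
Nfkb2, chr19:46304688-46304717, plus strand: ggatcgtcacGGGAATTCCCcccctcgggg
Rel, chr11:23771042-23771071, minus strand: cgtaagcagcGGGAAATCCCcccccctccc
Nfkbia, chr12:55492657-55492686, plus strand: gtcaggcgcgGGGAATTTCCaagccagtca
Tnip1, chr11:54962978-54963007, minus strand: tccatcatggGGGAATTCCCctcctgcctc
Tnip3, chr6:65590334-65590363, plus strand: gagacatcctGGGAAATCCCagttacatgg
Birc3, chr9:7873208-7873237, minus strand: gggtggggtgGGGATAGGCCtcttaaggcg
Of the genes shown, Nfkb2, Rel, Tnip3 and Birc3 had their highest mean level in mature dendritic cells, and Nfkbia and Tnip1 in regulatory T cells.

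Levels below are UMIs of a gene in counts per 1e6 UMIs of the class in that library (CPM), which compare 1 gene between classes and not different genes with each other. Across the 8 classes, mature dendritic cells had the highest mean of 16 of the 34 genes, neutrophils of 9, regulatory T cells of 8 and monocyte/macrophage cells of 1, the superoxide dismutase gene Sod2. Among 10928 genes of at least 10 CPM, the same classes were highest for 8.11%, 15.5%, 19.7% and 7.98%. All 9 of the neutrophil genes were highest there in each of the 4 libraries, as were 7 of the 16 in mature dendritic cells and 1 of the 8 in regulatory T cells (Bcl3).

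Each class was tested against monocyte/macrophage cells with edgeR's quasi-likelihood test over 11360 genes, with the library as a block and Benjamini-Hochberg adjustment. In mature dendritic cells 21 of the 34 genes were higher and 5 lower, where 16.3% of all genes were higher and 25.2% lower, with a median of 1.03 (log2) over the 34 and of -0.23 over all genes. Regulatory T cells had 17 higher and 12 lower (18% and 25.2% of all genes, medians 0.40 and -0.19), and neutrophils 12 higher and 2 lower (6.06% and 18.8%, medians 0.31 and -0.80). In NK cells 5 were higher and 18 lower (22.7% and 28.3%), and in CD8 T cells 7 and 15 (25.7% and 29.7%). Type 1 dendritic cells had 2 higher and 18 lower (10.6% and 19.3%), and the fibroblast and tumour class 2 and 27 (30.5% and 33.7%). With plain library totals in place of TMM scaling, the median of all genes moved to -0.51 in neutrophils, -0.35 in mature dendritic cells and 0.09 in regulatory T cells. The counts of the 34 then were 14 higher and 2 lower in neutrophils (7.61% and 9.89% of all genes), 20 and 5 in mature dendritic cells (14.3% and 30.7%) and 18 and 11 in regulatory T cells (25.4% and 17.5%). With a stricter gate, which left out 195 of the 385 regulatory T cells, that class had 13 higher and 13 lower (13.6% and 25.1% of all genes), with a median of 0.07 over the 34. Nfkb1, Nfkb2, Relb and Birc3 were no longer higher there, and the 13 were all among the 17. Mature dendritic cells then had 23 higher and 5 lower, with a median of 1.14, and the shares of all genes are not given here. The stricter gate asks for a larger share of the same maturation markers, so these values are not an independent check. Neutrophils and type 1 dendritic cells had too few cells for that gate.

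**Figure D1:**
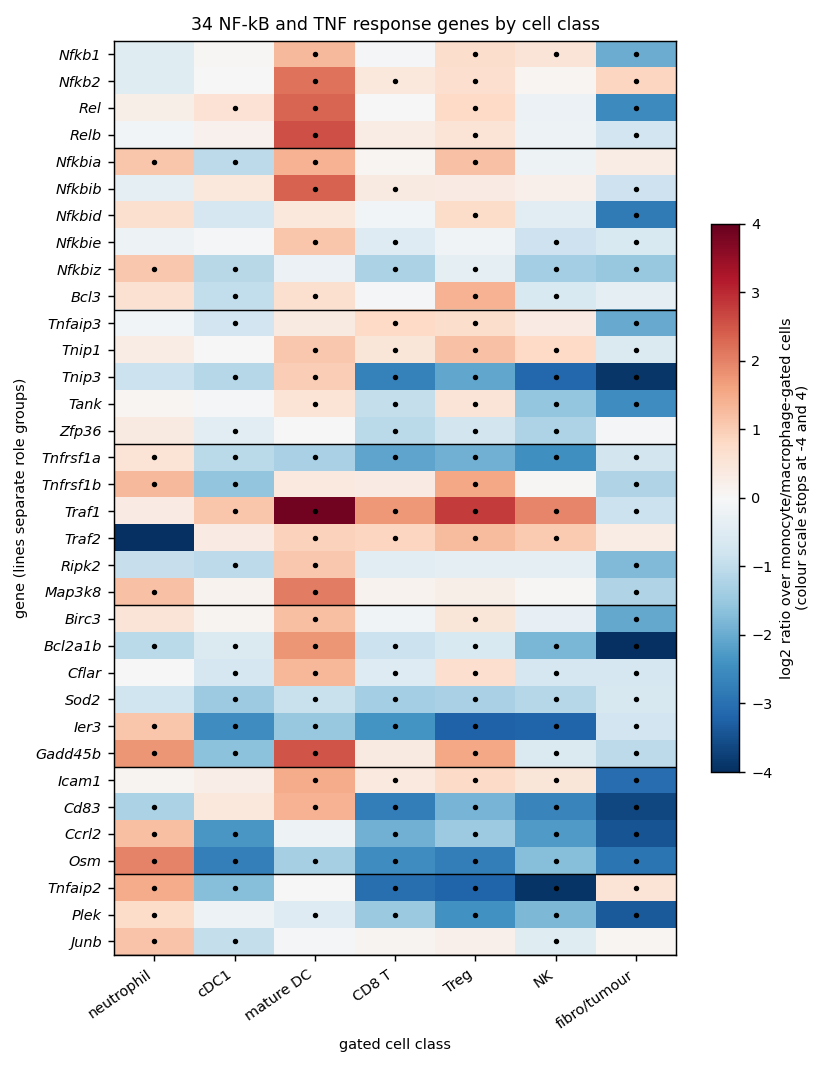
Fitted log2 ratio of each class over monocyte/macrophage cells (colour) for the 34 genes (rows, grouped by role), with a dot where the adjusted p was under 0.05. The mature dendritic column is red for 21 called genes, and the neutrophil ratio of Traf2 rests on no UMI in either control.

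The 4 NF-kB subunit genes were all higher in mature dendritic cells. Nfkb1, which encodes p105 and p50, stood at 597, 485, 736 and 623 CPM there, against 214, 279, 281 and 311 CPM in monocyte/macrophage cells (log2 1.29 ± 0.16 SE, edgeR adjusted p = 1.95e-08). Every dendritic value lay above every monocyte/macrophage value. Rel, which encodes c-Rel, stood at 634, 692, 691 and 709 CPM against 120, 160, 154 and 154 CPM (2.32 ± 0.15, edgeR adjusted p = 3.00e-17). Relb, the partner of p52 in the alternative pathway, stood at 231, 205, 414 and 258 CPM against 40.9, 54.7, 56.2 and 49.1 CPM (2.56 ± 0.14, edgeR adjusted p = 2.31e-20). LNP-Sirpa 1 was the highest of the 4 dendritic values for Relb, and its level in the class next in order, regulatory T cells, was 89.8 ± 14.9 CPM (SD, n = 4 libraries). The ratio of the 2 class means was 3.09. Nfkb2, which encodes p100 and p52, showed 2.17 ± 0.16 (edgeR adjusted p = 5.30e-16). Regulatory T cells held the second highest mean of all 4 subunits, with the gate as first given. Their Nfkb1 level (543 ± 96.7 CPM, SD, n = 4) overlapped that of mature dendritic cells (610 ± 103 CPM). The ranges of Nfkb2, Rel and Relb did not overlap between those classes.

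IkB-type genes divided between the classes. Nfkbia, encoding IkBα, stood at 816, 1168, 1017 and 1422 CPM in monocyte/macrophage cells and at 3115, 2537, 2819 and 3295 CPM in regulatory T cells (log2 1.16 ± 0.16 SE, edgeR adjusted p = 1.27e-07). Neutrophils held 2162, 3863, 2195 and 3413 CPM (1.10 ± 0.17, adjusted p = 2.25e-06) and mature dendritic cells 2444, 2640, 2613 and 3022 CPM (1.40 ± 0.16, adjusted p = 2.40e-09). The levels of these 3 classes overlapped, and all of them lay above the monocyte/macrophage range. Nfkbib, encoding IkBβ, was highest in mature dendritic cells at 257, 329, 274 and 275 CPM, against 56.8, 63.9, 58.3 and 64.9 CPM in monocyte/macrophage cells (2.34 ± 0.15, edgeR adjusted p = 1.08e-17). The highest class mean was 2.93 times the second, that of regulatory T cells. Nfkbiz, which encodes the nuclear co-regulator IkBζ, was instead highest in neutrophils at 869, 1029, 819 and 784 CPM, against 319, 333, 395 and 316 CPM (1.07 ± 0.15, edgeR adjusted p = 5.02e-07). Bcl3, a nuclear co-regulator that binds p50 and p52, had its highest level in regulatory T cells in all 4 libraries (72.4 ± 11.1 CPM, SD, n = 4). Nfkbid was higher in regulatory T cells (0.74 ± 0.29) and Nfkbie in mature dendritic cells (1.10 ± 0.16).

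The other feedback inhibitors were spread over several classes. Zfp36 encodes tristetraprolin, which destabilises Tnf mRNA, and stood at 876, 934, 768 and 899 CPM in monocyte/macrophage cells and 1505, 1877, 944 and 1295 CPM in neutrophils. The ranges did not overlap, and the difference did not pass (log2 0.37 ± 0.15 SE, edgeR adjusted p = 0.0780). Zfp36 was lower in regulatory T cells (-0.72 ± 0.15). Tank, a TRAF-binding adaptor, stood at 204, 272, 283 and 203 CPM in monocyte/macrophage and 370, 484, 458 and 354 CPM in regulatory T cells (0.52 ± 0.18, edgeR adjusted p = 0.0209). Tnfaip3, encoding A20, and its binding partner Tnip1 had their highest means in regulatory T cells (272 ± 33.6 and 126 ± 27.3 CPM, SD, n = 4). Their ranges overlapped with those of the next class in order. Tnip3, another A20 partner, was highest in mature dendritic cells (229 ± 30.1 CPM) and was lower in regulatory T cells than in monocyte/macrophage cells (log2 -2.07 ± 0.25).

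The 2 TNF receptors differed in their classes. Tnfrsf1a, encoding TNFR1, stood at 191, 271, 150 and 136 CPM in neutrophils and 96.5, 99.9, 111 and 95.1 CPM in monocyte/macrophage cells (log2 0.56 ± 0.21 SE, edgeR adjusted p = 0.0392). It was lower in regulatory T cells (32.7 ± 2.80 CPM, SD, n = 4) and in NK cells (16.3 ± 6.73 CPM). Tnfrsf1b, encoding TNFR2, was highest in regulatory T cells at 320, 332, 331 and 214 CPM, against 76.1, 95.9, 93.1 and 74.5 CPM in monocyte/macrophage cells (1.53 ± 0.15, edgeR adjusted p = 1.07e-11). Neutrophil levels of Tnfrsf1b were 297, 217, 234 and 273 CPM (1.28 ± 0.22, edgeR adjusted p = 1.11e-05), and overlapped with those of regulatory T cells. Traf1, an adaptor of TNFR2, had the largest ratio over monocyte/macrophage cells in mature dendritic and in regulatory T cells, and is given after its values were seen. It stood at 793, 782, 1157 and 1105 CPM in mature dendritic cells, 655, 501, 584 and 609 CPM in regulatory T cells and 48.2, 57.3, 94.9 and 86.1 CPM in monocyte/macrophage cells. The fitted ratios were 3.87 ± 0.15 and 2.80 ± 0.15 (edgeR adjusted p = 5.55e-26 and 7.62e-21). At least 1 Traf1 UMI was found in 88.9% to 95.5% of mature dendritic cells and in 23.6% to 37.1% of monocyte/macrophage cells. With each cell thinned to 2000 UMIs the Traf1 shares were 64.9% to 83.6% and 8.27% to 15.5%. Map3k8, the kinase Tpl2, was higher in mature dendritic cells (2.04 ± 0.18) and in neutrophils (1.17 ± 0.29), where its single values ran from 72.2 to 297 CPM. Ripk2, the kinase of the NOD receptors, stood at 43.5, 49.5, 66.3 and 43.0 CPM in mature dendritic cells, its highest class (1.08 ± 0.20, edgeR adjusted p = 2.32e-05).

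Survival and stress genes peaked in either mature dendritic cells or neutrophils, apart from Sod2. Bcl2a1b, an anti-apoptotic BCL2 relative, stood at 2557, 1934, 2218 and 2411 CPM in mature dendritic cells against 628, 702, 659 and 939 CPM in monocyte/macrophage cells (log2 1.76 ± 0.15 SE, edgeR adjusted p = 1.30e-13). The highest class mean was 3.12 times the second. Bcl2a1b has near-identical copies between which the counting could split reads, so its level is uncertain. Ier3, an immediate early gene, was highest in neutrophils at 975, 1968, 1229 and 1617 CPM against 403, 636, 431 and 731 CPM (1.12 ± 0.17, edgeR adjusted p = 4.32e-06). The 2 ranges did not overlap, and each had its lower values in replicate 1 of either group. In mature dendritic cells Ier3 was lower than in monocyte/macrophage cells (-1.53 ± 0.18). Gadd45b, a stress sensor, was higher in mature dendritic cells (2.51 ± 0.18), in neutrophils (1.77 ± 0.21) and in regulatory T cells (1.55 ± 0.19). Birc3, a ubiquitin ligase of the TNF receptor complex, and Cflar, an inhibitor of caspase 8, were higher in mature dendritic cells (1.20 ± 0.16 and 1.32 ± 0.14). Sod2 was lower in mature dendritic and regulatory T cells (-0.89 ± 0.21 and -1.28 ± 0.23), and its neutrophil level was 21.2 CPM in control 1 and from 151 to 181 CPM in the other libraries.

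Among surface and secreted products, Osm had the largest ratio of its highest to its second class mean among the 34 genes. Osm encodes oncostatin M, a cytokine of the IL-6 family, and stood at 1081, 560, 582 and 613 CPM in neutrophils against 125, 147, 129 and 168 CPM in monocyte/macrophage cells (log2 2.00 ± 0.17 SE, edgeR adjusted p = 2.36e-13). The neutrophil mean was 4.99 times the next. In the controls it rests on 51 and 31 UMIs (95% Poisson intervals 805 to 1421 and 380 to 794 CPM, for counting error only). Ccrl2, a chemerin-binding receptor, stood at 1208, 1246, 547 and 761 CPM in neutrophils against 232, 371, 307 and 361 CPM (1.20 ± 0.16, edgeR adjusted p = 1.92e-07), with both controls above both LNP-Sirpa libraries. Cd83, a surface marker of dendritic cell maturation, stood at 1179, 1272, 1254 and 881 CPM in mature dendritic cells against 459, 711, 436 and 326 CPM (1.39 ± 0.17, edgeR adjusted p = 3.00e-08). It was lower in neutrophils (-1.28 ± 0.23). Icam1, an adhesion molecule, was higher in mature dendritic cells (1.47 ± 0.16) and in regulatory T cells (0.75 ± 0.18).

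The remaining targets had their highest mean levels in neutrophils. Tnfaip2 stood at 2056, 740, 683 and 812 CPM there against 196, 284, 313 and 417 CPM in monocyte/macrophage cells (log2 1.48 ± 0.26 SE, edgeR adjusted p = 2.09e-04). The neutrophil mean was 2.47 times that of the fibroblast and tumour class (434 ± 43.8 CPM, SD, n = 4). Plek, encoding the PKC substrate pleckstrin, stood at 2395, 848, 746 and 1045 CPM against 535, 604, 565 and 576 CPM (0.75 ± 0.16, edgeR adjusted p = 2.84e-04). The Plek range in neutrophils overlapped with that of type 1 dendritic cells (589 ± 264 CPM, SD, n = 4). Control 1 held the highest neutrophil value for Osm, Tnfaip2 and Plek. Junb, an AP-1 subunit, stood at 2734, 1877, 1306 and 1253 CPM against 449, 713, 730 and 700 CPM (1.13 ± 0.18, edgeR adjusted p = 4.10e-06). In neutrophils the 15 genes of a dissociation and stress list summed to 12972, 15037, 9354 and 9782 CPM, against 7787, 10081, 7963 and 7810 CPM in monocyte/macrophage cells. Their part in the neutrophil levels was not tested.

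**Figure D2:**
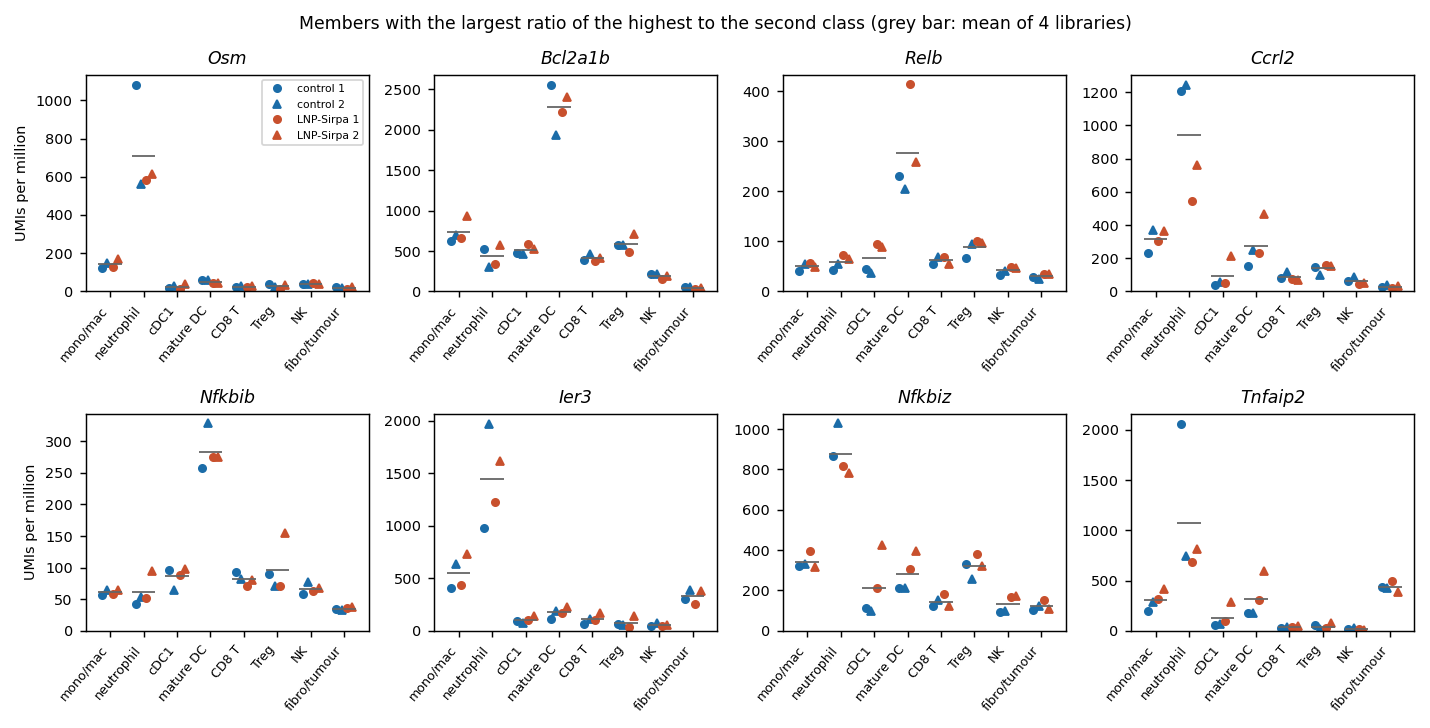
Level (CPM, linear axis from 0) by class and library for the 8 genes with the largest ratio of the highest to the second class mean; blue marks control, orange LNP-Sirpa, circles replicate 1 and triangles replicate 2. Osm, Ccrl2, Ier3, Nfkbiz and Tnfaip2 peak in neutrophils, and Bcl2a1b, Relb and Nfkbib in mature dendritic cells.

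Within the monocyte/macrophage class, cells were divided by 5 macrophage and 5 monocyte markers. In all 4 libraries 14 of the 34 genes were higher and 6 lower in the monocyte-gated cells, where 16.2% of 7500 genes of at least 10 CPM were higher and 31% lower. Traf1 had the largest ratio of the 34, 2.96 times as high in monocyte-gated as in macrophage-gated cells, followed by Osm, and Ier3 was 2.13 and Sod2 1.78 times as high. Traf1 stood at 143, 209, 179 and 202 CPM in monocyte-gated and 43.9, 55.0, 77.7 and 70.9 CPM in macrophage-gated cells. Osm stood at 392, 343, 260 and 281 CPM against 112, 144, 103 and 151 CPM, with no overlap. Cd83 was lower in monocyte-gated cells, with 0.510 times the macrophage-gated level, as was Icam1 with 0.660 times. These are descriptions without a test, and the monocyte-gated sums hold 97, 50, 597 and 548 cells.

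LNP-Sirpa was then compared with control within each class (n = 2 libraries per group), which asks whether the treatment moved these genes. In monocyte/macrophage cells 1 of the 34 genes passed edgeR's test, Ripk2, where 1.85% of 15830 genes passed (1.4% higher, 0.449% lower). Ripk2 stood at 19.9 and 19.1 CPM in the controls, and its treated values were 34.6 and 36.2 CPM. The groups did not overlap, and each pair of replicates lay close together, at 19.5 ± 0.544 and 35.4 ± 1.14 CPM (SD, n = 2). The log2 fold change was 1.01 ± 0.15 SE (edgeR adjusted p = 0.0389). Without control 1 or control 2 the size was 1.00 and 1.02 and the adjusted p 0.144 and 0.0985. In macrophage-gated cells alone it was 0.94 ± 0.15 (adjusted p = 0.0700) and in monocyte-gated cells alone 0.75 ± 0.35 (adjusted p = 0.361). At least 1 Ripk2 UMI was found in 13.4% and 12.1% of control and 18.2% and 20.9% of LNP-Sirpa cells, and in 3.87%, 3.67%, 6.47% and 6.83% after thinning to 2000 UMIs. The monocyte markers moved with this comparison, summing to 312 and 227 CPM in the controls against 1062 and 620 CPM after treatment. Neutrophil markers summed to 50.3, 63.0, 208 and 125 CPM, T cell markers to 27.7, 47.9, 113 and 49.7 CPM and macrophage markers to 16789, 23253, 15192 and 13199 CPM, with every marker counted in every library. The part of these in the result, beyond the gated fits, was not tested.

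**Figure D3:**
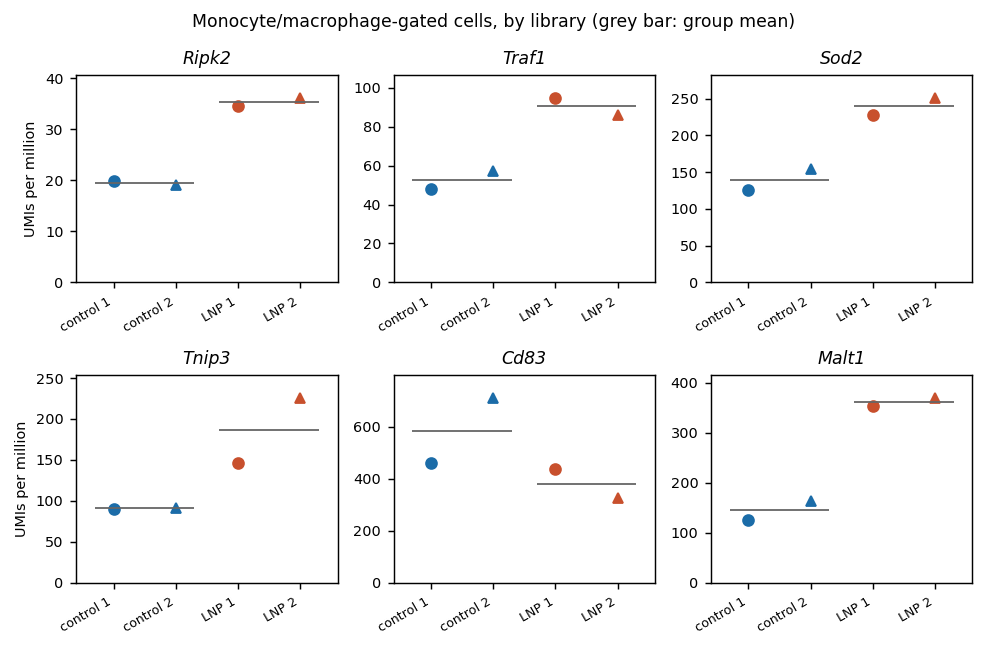
Levels in monocyte/macrophage cells by library for Ripk2, the one gene of the 34 past the threshold, for Traf1, Sod2, Tnip3 and Cd83, which did not pass, and for Malt1 of the wider pathway (CPM from 0; grey bars are group means). In all 6 panels the control and LNP-Sirpa values do not overlap.

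The other 33 genes did not pass in monocyte/macrophage cells. Of the 34, 31 had a fitted value above 0, with a median of 0.29 against -0.01 over all genes tested. In macrophage-gated cells alone 32 of 34 lay above 0 (median 0.25), and in monocyte-gated cells alone 21 of 34 (median 0.06). An unadjusted p under 0.05 was reached by 9 of the 34 and by 20.1% of all genes. The LNP-Sirpa values lay above both controls for 11 genes (Nfkb1, Nfkbie, Tnfaip3, Tnip1, Tnip3, Traf1, Ripk2, Birc3, Cflar, Sod2 and Tnfaip2), as for 15.7% of all genes, and below both for Cd83, as for 37.6%. The largest of the values that did not pass, chosen after they were seen, were those of Tnip3 (89.6, 91.7, 147 and 226 CPM; 1.21 ± 0.29 SE, edgeR adjusted p = 0.0853), Sod2 (125, 154, 227 and 251 CPM; 0.93 ± 0.21, edgeR adjusted p = 0.0829) and Traf1 (0.92 ± 0.17, edgeR adjusted p = 0.0541). In monocyte-gated cells alone the value of Traf1 was 0.21 ± 0.24. Cd83 had -0.49 ± 0.27 (edgeR adjusted p = 0.372). The subunits ran from 0.08 (Nfkb2) to 0.41 (Nfkb1), and Nfkbia had 0.46 ± 0.33 (edgeR adjusted p = 0.502). With plain library totals the median of all genes moved to -0.15 and that of the 34 to 0.14, with 26 of 34 above 0. Of all genes, 1.69% were then higher and 1.28% lower, against 1.4% and 0.449%.

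The 2 controls differed in these genes. In monocyte/macrophage cells, 32 of the 34 were higher in control 2 than in control 1, where 35.5% of 7674 genes of at least 10 CPM were. The median difference was 0.31 (log2) over the 34 and -0.07 over all of those genes, and it reached 0.73 for Gadd45b. NK cells had 29 of 34 higher in control 2 (medians 0.37 and -0.01) and CD8 T cells 26 of 34 (0.29 and -0.02). In the other classes 11 of 34 were higher in control 2 in regulatory T cells (-0.26 and 0.01), 14 in neutrophils (-0.23 and -0.22), 16 in type 1 dendritic cells (-0.05 and -0.01), 21 in mature dendritic cells (0.10 and -0.02) and 20 in the fibroblast and tumour class (0.03 and -0.08). Between LNP-Sirpa 2 and 1, 16 of the 34 were higher in monocyte/macrophage cells (-0.01 against -0.18). The stress list also stood highest in control 2 among the 4 monocyte/macrophage sums given above. Leaving out control 1 put the treatment median of the 34 at 0.10, and leaving out control 2 put it at 0.54.

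**Figure D4:**
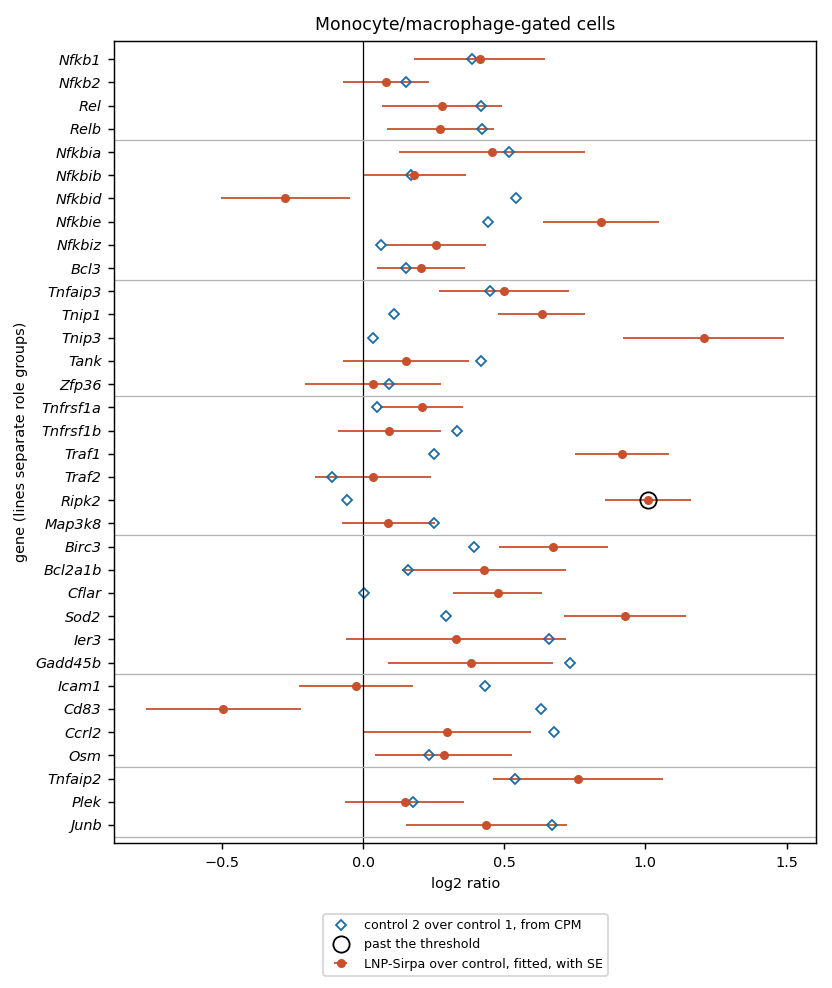
Monocyte/macrophage cells: log2 ratio of LNP-Sirpa over control for the 34 genes (orange, fitted value with SE, n = 2 libraries per group) beside the log2 ratio of control 2 over control 1 (blue diamonds, from CPM). Ripk2, circled, is past the threshold, and 32 of the 34 diamonds lie right of 0.

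No gene of the 34 passed between LNP-Sirpa and control in the other 7 classes by edgeR. In mature dendritic cells, where 2% of 7249 genes passed, 8 of the 34 and 17% of all genes had an unadjusted p under 0.05, and DESeq2 called 1 of the 34 and 1.24% of all genes. The lowest adjusted p was 0.0606, that of Tnfaip2 (178, 173, 310 and 597 CPM; log2 1.23 ± 0.30 SE by edgeR). LNP-Sirpa values lay above both controls for 15 genes, as for 26.8% of all genes, and below both for Osm, as for 19.7%. In NK cells, where 0.912% passed, the lowest edgeR adjusted p was 0.0551, and in neutrophils (0.322%) it was 0.106. Neutrophil sums allowed 32 of the 34 to be tested, without Traf2 and Ripk2. In type 1 dendritic cells no gene of 7156 passed, although the median of the 34 was 0.48 against 0.00 over all genes. LNP-Sirpa values lay above both controls for 25 of the 34 there and for 28.1% of all genes, and below both for Bcl3, as for 17% of all genes, with 27 cells in LNP-Sirpa 2. CD8 T cells (0.47%), regulatory T cells (0.159%) and the fibroblast and tumour class (1.56%) had lowest edgeR adjusted p of 0.352, 0.553 and 0.272. Unadjusted p under 0.05 were reached by 1 of the 34 in neutrophils (12.2% of all genes), 8 in type 1 dendritic (9.8%), 2 in CD8 T (9.19%), 2 in regulatory T (7.52%), 5 in NK (9.86%) and 3 in fibroblast and tumour cells (11.2%). DESeq2 called none of the 34 in these 6 classes. In simulated data of the same sums, edgeR recovered 29.5% of genes changed by log2 1 in monocyte/macrophage cells, 21.2% in mature dendritic cells and 3% in neutrophils. In type 1 dendritic cells it recovered 4.9%. It also called 13 unchanged genes in monocyte/macrophage cells, 1 in mature dendritic cells, 0 in neutrophils and from 6 to 16 in the other classes.

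The treatment effect in each class was also tested against that in monocyte/macrophage cells, as a treatment by class term with the library as a block. By edgeR 1 of the 34 genes passed, Traf1 in neutrophils, where 1.43% of all genes did. The median difference over all genes was itself positive there, as given further below. The log2 difference of Traf1 was 2.24 ± 0.57 SE (edgeR adjusted p = 0.0320). Its neutrophil levels were 21.2, 72.2, 255 and 212 CPM, from 1 and 4 UMIs in the controls, and the call was lost in each of the 6 alternatives run. Monocyte markers in neutrophils moved the same way, at 276, 162, 3268 and 2228 CPM (3, 3, 5 and 5 of 5 counted), as did T cell markers at 0, 126, 457 and 193 CPM (0, 5, 6 and 6 of 6). Their part in the Traf1 difference was not tested. None of the 34 passed in type 1 dendritic (0.106% of all genes), mature dendritic (0.167%), CD8 T (0.546%), regulatory T (0.0704%), NK (0.405%) or fibroblast and tumour cells (0.66%). In simulated counts with 1 fixed spread for all genes, this test in CD8 T cells recovered 0% of genes changed by log2 1. It recovered 38.3% of those changed by log2 2. A gene that did not pass is therefore not shown to respond alike in 2 classes.

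Of 41 further genes of the pathway, Malt1 rose in monocyte/macrophage cells and no other passed there (edgeR, 1 higher and 0 lower of 41 tested). Malt1 encodes the paracaspase that carries antigen and C-type lectin receptor signals to NF-kB. It stood at 126 and 164 CPM in the controls against 353 and 369 CPM after treatment (log2 1.46 ± 0.23 SE, edgeR adjusted p = 0.0412). Without control 1 or 2 the edgeR adjusted p was 0.194 and 0.0530, with a looser gate 0.0523, and in macrophage-gated and monocyte-gated cells alone 0.0996 and 0.165. In mature dendritic cells it rose from 288 and 355 to 686 and 726 CPM (1.04 ± 0.21, edgeR adjusted p = 0.0307), and in NK cells from 168 and 184 to 307 and 288 CPM (0.76 ± 0.18, edgeR adjusted p = 0.0463). The NK call was lost in 9 of 13 alternatives, with an adjusted p of 0.450 by DESeq2 and by edgeR of 0.328 and 0.103 without control 1 or 2. The mature dendritic call was lost in 3 of 13, with an edgeR adjusted p of 0.138 with cells thinned and 0.531 and 0.0895 without control 1 or 2. In NK cells neutrophil markers summed to 15.8, 12.2, 77.2 and 33.8 CPM (4, 4, 8 and 6 of 8 counted), macrophage markers to 1418, 2052, 969 and 891 CPM and monocyte markers to 997, 1402, 1268 and 1658 CPM. Their part was not tested. Ltb, encoding lymphotoxin β, also rose in mature dendritic cells, from 2.07 and 4.50 to 22.8 and 21.5 CPM (2.63 ± 0.60, edgeR adjusted p = 0.0481), and the lowest library held 2 of its UMIs. Of the 10 alternatives that gave Ltb an adjusted p, 5 lost the call, with edgeR values of 0.0709 for a looser and 0.178 for a stricter gate, 0.0752 for a stricter cell filter, and 0.441 and 0.0676 without control 1 or 2. DESeq2 gave Ltb no adjusted p. In mature dendritic cells monocyte markers summed to 49.7 and 52.9 CPM in the controls against 238 and 181 CPM after treatment, neutrophil markers to 170 and 178 against 320 and 232 CPM, and the C1q genes to 3054 and 3145 against 1536 and 2394 CPM. T cell markers summed to 26.9 and 32.6 against 98.4 and 30.1 CPM. The part of these in the Malt1 and Ltb values was not tested. Tnf itself stood at 104, 129, 119 and 101 CPM in monocyte/macrophage cells (0.05 ± 0.18, edgeR adjusted p = 0.912). Of the 15 stress genes, none passed in monocyte/macrophage cells (edgeR lowest adjusted p = 0.274).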

How the data were processed

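UMI counts per gene and cell barcode were deposited for 4 single-cell libraries. The submitters' processing notes name the aligner STAR 2.5.1b and the build GRCm39, and per the file headers PISA 1.0 made the matrices. Neither annotation nor cell calling is described by any label or header, and every deposited barcode held at least 1000 UMIs. Barcodes with at least 500 UMIs and 300 genes and at most 15% mitochondrial UMIs were kept. Cells were gated on the share of lineage marker UMIs from 1 list (at least 0.8 between lineages and 0.6 within myeloid cells, with at least 4 own UMIs). Neutrophils needed a share of 0.9 within myeloid cells, 10 own UMIs and 1% of the cell's UMIs, T and NK cells 3 own UMIs each, CD8 T cells 2 CD8 UMIs and regulatory T cells 1 Foxp3 UMI. No doublet caller was run. Free RNA was not subtracted, and barcodes where no lineage reached the 0.8 share entered no class.

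UMIs were summed per library and class. LNP-Sirpa was compared with control by edgeR 4.0.16 (quasi-likelihood, TMM scaling, R 4.3.3) with Benjamini-Hochberg adjustment over all genes tested, with a threshold of 0.05. Classes were compared with the library as a block. DESeq2 1.42.0, other gates, filters, scalings, thinning and leaving out each library were alternatives, and library totals per class were added after the data were seen. The tests were checked on simulated counts. Figures used matplotlib 3.10.9. The 34 genes and the lists were chosen with earlier results of these data known. Per-library values are given for genes past the threshold, for the 2 most abundant in monocyte/macrophage cells of each role, and for the 8 with the largest ratio of the highest to the second class mean, with others named as chosen after their values were seen (also Traf1, Rel, Relb, Tank, Junb and Cd83 where not so covered). Over all tested genes same-numbered replicates did not deviate together, though single genes such as Ier3 did. The 4 oligo libraries were not analysed here.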

Additional observations from a re-analysis of the deposited data

Results flagged for a closer look

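The LNP-Sirpa effect on Traf1 differed between neutrophils and monocyte/macrophage cells by log2 2.24 ± 0.57 SE (treatment by class term, edgeR adjusted p = 0.0320, n = 2 libraries per group), where 1.43% of all genes passed and the median of all genes was 0.93. Neutrophil Traf1 stood at 21.2 and 72.2 CPM in the controls against 255 and 212 CPM after treatment, from 1, 4, 258 and 100 UMIs. The 95% Poisson intervals of the controls were 0.537 to 118 and 19.7 to 185 CPM, for counting error only. The difference was past the threshold in none of its 6 alternatives, where it ran from 1.49 to 3.44 with edgeR adjusted p from 0.0537 to 0.530. The monocyte markers in neutrophils summed to 276 and 162 CPM in the controls against 3268 and 2228 CPM after treatment (3, 3, 5 and 5 of 5 counted), and the T cell markers to 0 and 126 against 457 and 193 CPM (0, 5, 6 and 6 of 6). Their part in the Traf1 difference was not tested.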

How the results depend on the processing

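Counts of the 34 genes past the threshold between LNP-Sirpa and control depended on the settings. In monocyte/macrophage cells the count was 1, and 7 by DESeq2, 7 with no filter on low counts, 3 with cells thinned to 2000 UMIs, 2 with library totals, 0 in macrophage-gated and 0 in monocyte-gated cells alone, and 0 to 5 without 1 library. All genes called there were 293, 1344 by DESeq2, 1206 with no filter, 575 thinned, 471 with library totals, 46 and 148 in the 2 gates, and 83 to 1023 without 1 library. Mature dendritic cells had 0, and 1 each by DESeq2, with library totals, no filter or a stricter cell filter, and 0 to 6 without 1 library. With no filter NK cells had 2, type 1 dendritic cells 2, neutrophils 1 and CD8 T cells 1, and CD8 T cells had 1 with a looser gate. The shares of all genes under these settings are not given here for those classes. In monocyte/macrophage cells 4.65% of all genes passed with no filter, against 1.85% with it. Without 1 library the counts ran from 0 to 4 in NK, 0 to 9 in type 1 dendritic, 0 to 1 in neutrophils, 0 to 2 in CD8 T cells and 0 to 3 in the fibroblast and tumour class. The highest of these stood beside larger shares of all genes: 10.5% in type 1 dendritic cells without LNP-Sirpa 1 (0 with all), 10.8% in mature dendritic (2% with all) and 8.3% in fibroblast and tumour cells (1.56%) without LNP-Sirpa 2, 2.31% in NK (0.912%) and 2.83% in CD8 T cells (0.47%) without LNP-Sirpa 1, and 1.2% in neutrophils without control 2 (0.322%). The cause was not tested.

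With the replicate number as a block, the count was 1 in monocyte/macrophage, 1 in mature dendritic and 3 in NK cells and 0 elsewhere. Of all genes 2.77% then passed in monocyte/macrophage cells, against 1.85% without the block. For the other classes that share is not given here, so their counts are not a result about the 34. The labels do not say that equal numbers pair the samples. Over all tested genes of a class, the correlation of same-numbered deviations ran from -0.06 to 0.04.

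Against monocyte/macrophage cells, counts of higher genes ran without 1 library from 3 to 8 in CD8 T (7 with all), 3 to 6 in NK (5), 1 to 3 in the fibroblast and tumour class (2) and 1 to 3 in type 1 dendritic cells (2, and 4 with library totals). Of all genes 17.6% to 23.1% were then higher in CD8 T (25.7% with all), 15.3% to 22.4% in NK (22.7%), 25.2% to 31% in fibroblast and tumour (30.5%) and 6.03% to 13.1% in type 1 dendritic cells (10.6%, and 12.7% with library totals). CD8 T cells had 10 higher with library totals (27.6% of all genes). Neutrophils had 4 lower genes with no filter (7.15% of all genes) and 2 with it (18.8%). The treatment by class count was 1 in neutrophils (1.43% of all genes), 0 with library totals (0.167%) and 0 with no filter (0.325%). In type 1 dendritic cells it was 0 (0.106% of all genes), and 1 with no filter (0.204%). CD8 T cells had 0 with library totals (0.299%) and with no filter (0.608%), as had mature dendritic cells (0.044% and 0.14%). For this term, counts without 1 library are not given, because 1 group then holds only 1 library. Tnip1 reversed to -0.22 in monocyte-gated cells alone (0.63 in all). Of 288 values for single genes, 234 kept direction and side, 32 fell short of the threshold, 21 passed newly and 1 reversed. Neutrophils and type 1 dendritic cells had no value where a library held under 20 cells.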
